A study of Mus musculus with 3 samples.

Results

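The sites described here are 606 binding sites of the transcription factor Tbx4 at the ends of protein-coding genes. They are the summits of the deposited Tbx4 list of 4780 that lay within 1 kb of either end of a protein-coding gene and had no Hoxc10 summit, of the list made with the Abcam antibody, within 200 bp. They made up 12.7% of the Tbx4 list and 14.2% of its 4261 sites without Hoxc10. They were chosen by summit position, near gene ends and away from Hoxc10, so their number and their nearness to genes are a description. Gene ends came from the RefSeq table of GRCm38, the assembly that is also called mm10, with 21887 protein-coding genes on chromosomes 1 to 19, X and Y.

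Both factors were mapped by chromatin immunoprecipitation with sequencing (ChIP-seq), in which fragments of fixed chromatin are recovered with an antibody and sequenced. The tissue was the hindlimb bud of wild-type CD1 embryos at stage e11.5, in mid-gestation, the same for every group. The labels give 3 samples: a Tbx4 sample made with a homemade antibody and 2 Hoxc10 samples, made with an Abcam and a Santa Cruz antibody, of which the latter was not analysed here. Each list stands for 1 sample, so there are no replicates, and all shares, medians and intervals below describe sites or genes within these lists, with no test between conditions. The depth of sequencing is unknown, because summits come without read numbers. An input or control-antibody library was not analysed here, and how far the sites at gene ends depend on the antibody was not tested.

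Tbx4 is a T-box protein of the hindlimb bud mesenchyme and takes part in hindlimb outgrowth, and T-box proteins recognise DNA with a core such as AGGTGT. The start of a gene carries its promoter, where RNA polymerase II is loaded. Promoters of widely expressed genes are often rich in the dinucleotide CpG and in motifs of general activators such as ETS proteins, NRF1 and YY1, whereas promoters of tissue-specific genes often are not. Past the end of a gene, transcription goes on for some distance before the polymerase leaves the DNA.

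The promoter sequences below show high-scoring sites with and without a T-box core in the window. They are RefSeq windows of 300 bases on GRCm38.p6, with 250 bases before an annotated start and 50 from the start on, written along the gene and with bases counted from 1 at the 5′ end. A window can belong to a start that lies inside the outermost one, from which distances are given in the rest of the text. The first 3 are the highest-scoring sites in a window that holds a T-box core, AGGTGT or GGTGTGA on either strand, and the core is in capitals. In the Pcnp window (chr16:56029668-56029967, minus strand) the summit, with a score of 65.28, is base 161, and the core begins at base 145, 16 bases before it. In the Azi2 window (chr9:118040272-118040571, plus strand) the summit, of score 13.57, is base 89, with the core beginning 10 bases before it. In the Zc3h6 window (chr2:128967152-128967451, plus strand) the summit, of score 9.15, is base 232. Of its 2 cores, AGGTGT begins 7 bases before the summit and GGTGTGA, on the opposite strand, 176 bases before it.
Pcnp: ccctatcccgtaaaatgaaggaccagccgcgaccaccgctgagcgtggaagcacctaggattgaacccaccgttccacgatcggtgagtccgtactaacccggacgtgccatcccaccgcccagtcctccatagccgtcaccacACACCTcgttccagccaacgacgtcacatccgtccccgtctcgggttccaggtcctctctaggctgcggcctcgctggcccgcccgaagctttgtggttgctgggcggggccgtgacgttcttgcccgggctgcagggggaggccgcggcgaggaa
Azi2: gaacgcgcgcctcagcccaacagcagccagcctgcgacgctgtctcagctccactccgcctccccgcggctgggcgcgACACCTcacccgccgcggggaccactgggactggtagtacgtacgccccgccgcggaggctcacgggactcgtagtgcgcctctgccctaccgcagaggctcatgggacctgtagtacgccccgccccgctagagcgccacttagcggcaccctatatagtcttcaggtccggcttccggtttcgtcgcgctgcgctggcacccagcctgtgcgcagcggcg
Zc3h6: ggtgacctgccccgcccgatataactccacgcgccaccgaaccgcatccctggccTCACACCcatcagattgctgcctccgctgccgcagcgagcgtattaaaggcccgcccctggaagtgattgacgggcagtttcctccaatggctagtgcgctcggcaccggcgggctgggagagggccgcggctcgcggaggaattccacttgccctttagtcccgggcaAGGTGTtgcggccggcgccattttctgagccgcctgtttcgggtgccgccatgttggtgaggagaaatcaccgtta

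The next 3 are from the highest-scoring sites in a window without a T-box core, where Zfp142 tied at 18.38 with Akap13 and Abraxas2, which are not shown. Capitals mark CGGAAG, the core read by ETS proteins, on either strand. The Azi2 window above also holds this core, left there in lower case. The Arl2 window (chr19:6141088-6141387, minus strand) has its summit, of score 26.17, at base 141. The Pold3 window (chr7:100121453-100121752, minus strand) has its summit, of score 20.91, at base 285, past the start. The Zfp142 window (chr1:74587979-74588278, minus strand) has its summit, of score 18.38, at base 208. In these windows the ETS core began 81, 156 and 177 bases before the summit.
Arl2: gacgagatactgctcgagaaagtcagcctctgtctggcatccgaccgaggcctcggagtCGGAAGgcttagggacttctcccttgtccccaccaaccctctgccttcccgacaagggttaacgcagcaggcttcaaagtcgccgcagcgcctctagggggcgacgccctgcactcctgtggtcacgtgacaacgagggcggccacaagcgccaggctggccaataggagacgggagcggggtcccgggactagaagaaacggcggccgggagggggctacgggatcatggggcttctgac
Pold3: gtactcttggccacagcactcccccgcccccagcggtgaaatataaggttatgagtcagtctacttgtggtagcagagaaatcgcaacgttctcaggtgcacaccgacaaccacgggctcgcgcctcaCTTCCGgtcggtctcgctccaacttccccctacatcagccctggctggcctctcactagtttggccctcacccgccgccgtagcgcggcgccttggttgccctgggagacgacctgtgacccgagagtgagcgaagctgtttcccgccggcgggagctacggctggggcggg
Zfp142: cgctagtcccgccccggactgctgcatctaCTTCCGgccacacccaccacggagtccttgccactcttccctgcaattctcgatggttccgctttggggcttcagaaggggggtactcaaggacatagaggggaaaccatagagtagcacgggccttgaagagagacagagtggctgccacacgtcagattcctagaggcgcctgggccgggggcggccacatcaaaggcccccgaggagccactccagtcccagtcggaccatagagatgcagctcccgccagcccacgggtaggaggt

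Most of the sites lay at gene starts. The strand of the nearest gene was known, from the RefSeq promoter table, for 483 of the 606 sites. The others include all 24 sites on chromosome 18, which is thus absent from the shares of starts and ends. Of the 483 sites with a known strand, 377 were nearest to a start, or 78.1% (95% Wilson interval 74.1 to 81.5%), and 106 to an end, or 21.9% (18.5 to 25.9%). Among the 54 Hoxc10 sites at gene ends without Tbx4 and with a known strand, 45 were nearest to a start, or 83.3% (71.3 to 91.0%), an interval that overlaps that of the Tbx4 sites. Of the 8 Tbx4 sites at gene ends that were shared with Hoxc10, 4 had a known strand and 3 of them were nearest to a start. Those 8 sites touched 0.0366% of protein-coding genes.

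**Figure D1:**
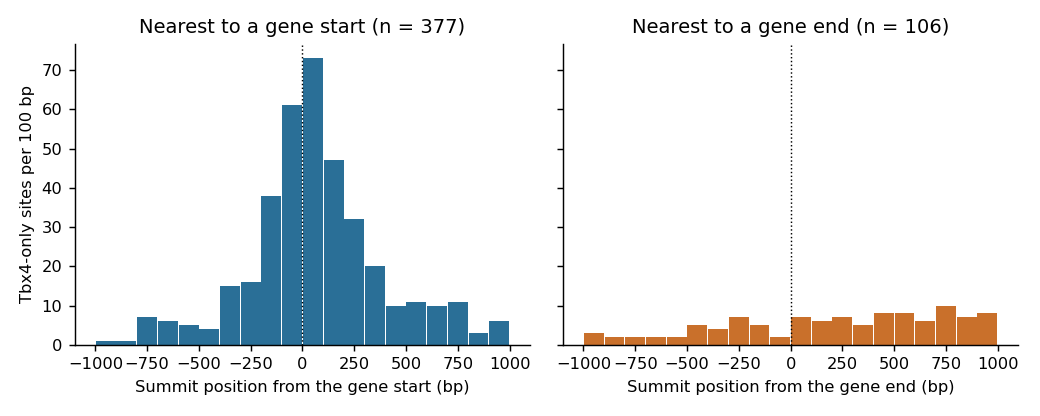
Positions of the Tbx4-only sites with a known strand, as sites per 100 bp, against the distance of the summit from the nearest gene start (left) or gene end (right) in bp, with negative values before it and positive values after it along transcription. The 377 sites at starts pile up on both sides of the start, with 61 in the last 100 bp before it and 73 in the first 100 bp after it, while the 106 sites at ends are spread out and lie mostly past the end.

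At starts the summits gathered close to the first base. Their median distance was 149 bp (quartiles 63 and 343 bp), 221 of 377 (58.6%) lay within 200 bp, and 154 (40.8%) lay before the start. At ends there was no such peak. The median distance was 476 bp (quartiles 230 and 750 bp), 20 of 106 (18.9%) lay within 200 bp, and 72 (67.9%, 58.5 to 76.0%) lay past the end, 47 of them (44.3%) by 400 bp or more. Of the sites nearest to an end, 62 (58.5%) were outside every protein-coding gene and 13 (12.3%) also had the start of another gene within 1 kb.

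The sites touched 713 genes, or 3.26% of the 21887 protein-coding genes, when every gene with an end within 1 kb was counted, and were nearest to an end of 581 (2.65%). Of the 17492 genes with a known strand, 435 (2.49%) had a site within 1 kb of the start and 164 (0.938%) within 1 kb of the end. Gene ends of 2 genes lay within 1 kb of 141 sites (23.3%), and those of 3 genes of 2 sites. When the nearest end of each gene was taken, the 141 sites comprised 43 between or beside starts on opposite strands, 48 at a start and an end, 12 at ends of genes that converge and 38 with a gene of unknown strand. Of the 435 genes with a site at the start, 94 (21.6%, 18 to 25.7%) faced the start of another gene on the opposite strand within 1 kb, compared with 1795 of all 17492 (10.3%). A site in such a promoter counts for both genes. Bcs1l and Zfp142, which encode an assembly factor of the respiratory chain and a zinc finger protein, have starts 156 bp apart with a summit of 18.38. Atg13, an initiator of autophagy, and Harbi1 have starts 255 bp apart with a summit of 13.57 between them.

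Genes with a site had a median length of 15.8 kb, compared with 17.2 kb for all genes. Another Tbx4 site, outside this set, lay in the gene or 1 kb around it for 54 of the 713 genes (7.57%, 5.85 to 9.75%), compared with 1266 of all 21887 (5.78%). A Hoxc10 site lay there for 17 (2.38%), the same share as of all genes (521, 2.38%). The nearest Hoxc10 summit was at a median of 691 kb (quartiles 245 and 1660 kb) from these sites and of 351 kb (94.9 and 1030 kb) from the other 3655 Tbx4 sites without Hoxc10. By the rule no Hoxc10 summit could lie within 200 bp of either group, but 3 of the 606 (0.495%) and 116 of the 3655 (3.17%) had one between 200 bp and 1 kb. No site of the set lay on chromosome X or Y, where the Tbx4 list as a whole had 13 and 21 summits.

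The scores of these sites were mostly low. The score is the authors' MACS2 value for a peak on a −log10 scale, of a p-value or a q-value, which the labels do not tell apart. It is described here with no test. The median was 2.94 (quartiles 2.26 and 4.46), compared with 3.67 (2.94 and 6.19) for the other Tbx4 sites without Hoxc10 and 7.14 (3.67 and 13.57) for those shared with Hoxc10. Of the 606 sites 191 (31.5%) scored above the median of the whole list, 3.67, compared with 1783 of 3655 (48.8%) and 362 of 519 (69.7%). Scores of 10 or more were reached by 39 sites (6.44%), compared with 525 (14.4%) of the other sites without Hoxc10. The median was 2.94 at starts, at ends and where the strand was unknown, and the same within 200 bp of a start as farther from it.

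**Figure D2:**
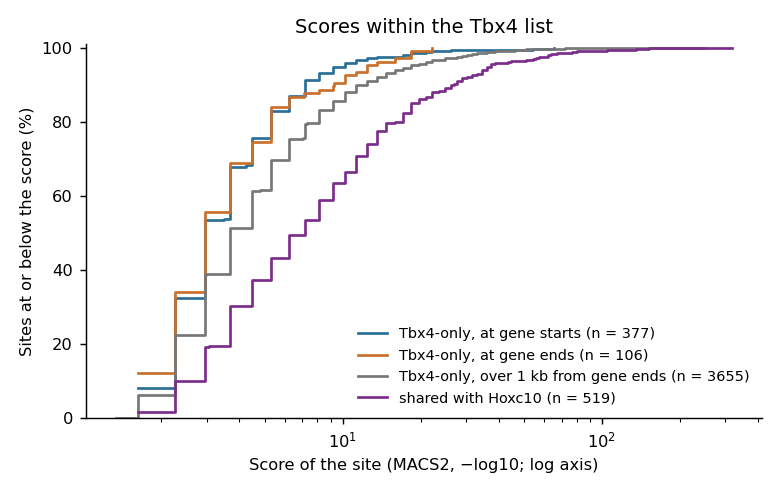
Cumulative share of sites (%) against the MACS2 score (−log10, log axis) for 4 groups of the Tbx4 list, namely sites without Hoxc10 at gene starts (377), at gene ends (106) and over 1 kb from gene ends (3655), and sites shared with Hoxc10 (519). The curves of starts and ends lie together and to the left of the other curves, with medians of 2.94, 2.94, 3.67 and 7.14.

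The scores came in a few steps. Of the 606 sites 528 (87.1%) had one of 7 values, among them 140 at 2.26, 134 at 2.94, 88 at 3.67 and 52 at 1.63, and 3506 of all 4780 Tbx4 sites (73.3%) had one of the same 7 values. Low in the list an order of sites by score is thus mostly one of ties. Just inside the limit of 1 kb were sites at Card14 (994 bp, score 11.3) and Ep400 (991 bp, 2.26), and just outside it were sites at Tanc1 (1004 bp, 5.3) and Has3 (1005 bp, 2.94). The sites closest to a Hoxc10 summit that still counted as Tbx4-only were at the predicted gene Gm52008 (214 bp, score 18.38) and at Hes1 (231 bp, 10.21). The farthest from Hoxc10 that still counted as shared were at Trib2 (114 bp, 3.67) and C330018D20Rik (137 bp, 2.94).

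The strongest site of the set lay at the start of Pcnp, which encodes a small nuclear protein rich in PEST sequence. Its summit, at chr16:56029807 and 80 bp before the outermost start of the gene, scored 65.28 and was number 21 of the whole Tbx4 list. The second lay at the gene for Tbx4 itself (chr11:85886367-85916097), 79 bp before its outermost start, with a score of 54.08 at position 85886288. No RefSeq window covered this start, so its sequence is not shown. No other site of the set scored above 26.17. Arl2, a small GTPase of tubulin folding, had a summit of 26.17 at 6141247 of chromosome 19, 110 bp before the start. The same score was found at 66851262 of chromosome 15, 541 bp outside Tg, the gene of thyroglobulin, whose strand was not known here.

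Further high sites at starts belonged to genes of varied roles. Pth1r, the receptor for parathyroid hormone and its related peptide that restrains cartilage maturation, had a summit of 22.2 inside the gene, 565 bp past the start. Pold3, a subunit of DNA polymerase delta, had one of 20.91 at 34 bp past the start. Akap13, an anchor of protein kinase A, and Abraxas2 each had one of 18.38, at 129 and 198 bp before the start. Glce, an enzyme of heparan sulfate synthesis, had one of 17.15, 387 bp before the start.

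High sites were also found at ends. The summit of 22.2 at Tmem107, a protein of the ciliary transition zone, lay 308 bp past the end of the gene. Hoxa9 had one of 18.38 lying 707 bp past its end, at 52222390 of chromosome 6, and the nearest Hoxc10 summit was 3906 bp away. Gm52008 had one of 18.38 at 85 bp past the end. Hnrnpa3, an RNA-binding protein of the spliceosome, had one of 15.93 inside the gene, 227 bp before the end, and Romo1 one of 13.57 at 532 bp past the end. Of the 39 sites with a score of 10 or more, 20 were nearest to a start (5.31% of the sites at starts), 10 to an end (9.43% of those at ends) and 9 to a gene of unknown strand.

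The gene classes were 30 lists of gene names, taken by symbol prefix or written by hand. For each, the share of its genes with a site within 1 kb of either end was set beside the 3.26% of all protein-coding genes. Of the 713 genes 183 (25.7%) were in a class, compared with 4233 of all 21887 (19.3%). In 7 classes the share was at least 3 times that of all genes. These were housekeeping reference genes, histone cluster genes, limb patterning genes, splicing factors, cytosolic ribosomal proteins, chromatin regulators and ubiquitin conjugating enzymes. The lists were chosen with earlier results of these data known, so the ranking of classes is a description, and no chance test was run on them. A gene with a close neighbour can be counted through the promoter of that neighbour.

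**Figure D3:**
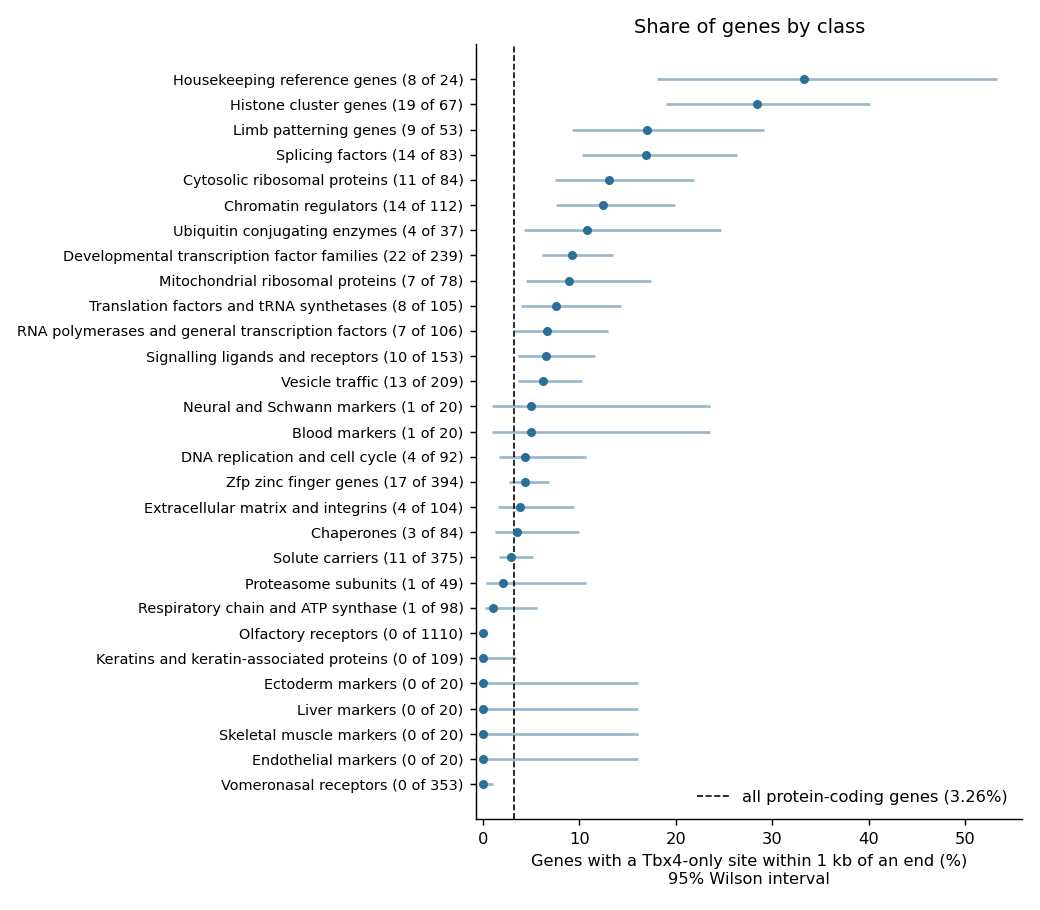
Share of the genes of each class reported (%) with a Tbx4-only site within 1 kb of an end, with 95% Wilson intervals over genes, and the number of genes with a site and in all. The dashed line is the share of all protein-coding genes, 3.26%; housekeeping reference genes (33.3%) and histone cluster genes (28.4%) are farthest to its right, and the olfactory receptors, with 0 of 1110 genes, to its left.

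Canonical histone genes are expressed in S phase and stand in clusters, where H2A and H2B genes often share a short promoter from which they are read in opposite directions. Of 67 histone cluster genes, 19 had a site (28.4%, 19 to 40.1%). They shared 13 sites, 12 of them on chromosome 13, and 7 of the 13 sites lay within 1 kb of ends of 2 histone genes. By kind, the genes were 8 of 16 for H2B, 7 of 17 for H2A, 3 of 10 for H1, 1 of 12 for H4 and 0 of 12 for H3. The highest site, of 8.12, was near H2ac8 and H2bc8, whose starts are 180 bp apart, and sites of 6.19 were near H2ac22 with H2bc22 and H2ac7 with H2bc7. A site of 5.3 was near H2ac11 and H2bc11. In each of these pairs the summit lay inside a gene and beside the starts, not between them. The nearest gene end was the end of H2bc8 (224 bp), H2ac7 (225 bp) and H2ac11 (227 bp) and the start of H2ac22 (106 bp). Of the 13 summits 11 lay inside a gene, and their scores ranged from 2.26 to 8.12 with a median of 4.46, compared with 2.94 for the whole set. In a gene shorter than 1 kb, 1 site lies near both ends, and near-identical copies can make the placing of reads uncertain. Counted by the nearest gene alone, the share was 17.9%. Hoxc10-only sites were near none of these histone genes, and near 0.37% of all genes.

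Genes of RNA splicing and of the ribosome followed. Of 83 splicing factors, 14 had a site (16.9%, 10.3 to 26.3%), with Hnrnpa3 (15.93), Hnrnpa2b1 (12.42 and 4.46) and Srsf7 (6.19) the highest. The summit of 12.42 was counted for Hnrnpa2b1 and for its neighbour Nfe2l3, to which it was nearer. With a known strand, 6 of 71 splicing factors had a site at the start (8.45%, against 2.49% of all genes) and 5 at the end (7.04%, against 0.938%).

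Of 84 genes matched as cytosolic ribosomal proteins, 11 had a site (13.1%, 7.47 to 21.9%). At starts the share was close to that of all genes, with 2 of 64 genes (3.12%), Rpl27 (11.3, 69 bp past the start) and Rpl28 (4.46, 39 bp before it). At ends it was 7 of 64 (10.9%, against 0.938%). These 7 were Rps18 and Rpl7l1 (5.3 each), Rpl5 (4.46), Rpl11 (3.67), Rpl4 and Rpl22 (2.26 each) and Rpl10a (1.63). For 3 of them the start of a neighbour was nearer to the summit. It was B3galt4 at Rps18 (265 bp), 2310039H08Rik at Rpl7l1 (308 bp) and Snapc5 at Rpl4 (71 bp). At Rpl5, Rpl11 and Rpl22 the summits lay 876, 957 and 488 bp past the end. Rpl7l1, which the prefix took in, is a relative of Rpl7.

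Other genes of protein synthesis, turnover and transcription had lower shares. Sites were found at 7 of 78 mitochondrial ribosomal proteins (8.97%, 4.42 to 17.4%), with Mrpl58 (6.19 and 2.94) and Mrpl12 (5.3) the highest. They were found at 8 of 105 translation factors and tRNA synthetases (7.62%, 3.91 to 14.3%), where the sites of Eif6 (9.15) and Eif4g1 (8.12) were nearest to the starts of their neighbours BC029722 and Fam131a. Of 37 ubiquitin conjugating enzymes 4 had a site (10.8%, 4.29 to 24.7%), the highest at Ube2m (11.3), whose summit was nearer to the start of Chmp2a. The 5 sites of this class had a median score of 1.63. In the higher-scoring 50% of Tbx4 summits 1 of its genes remained (2.7%, against 1.11% of all genes). RNA polymerases and general transcription factors had 7 of 106 (6.60%, 3.24 to 13%), among them Polr2a, the large subunit of RNA polymerase II (5.3 and 2.94), the former nearer to Slc35g3. The shares of proteasome genes (1 of 49, the assembly chaperone Psmg1, 7.14, which the prefix took in), chaperones (3 of 84) and the respiratory chain (1 of 98, Ndufa5, 2.94) had intervals that include 3.26%.

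Chromatin regulators had 14 of 112 genes with a site (12.5%, 7.59 to 19.9%), 8 of 87 at the start (9.20%). The highest were Arid1a, a subunit of the SWI/SNF remodeller (12.42, 740 bp before the start), and Brd2, a reader of acetylated histones (5.3, 62 bp past the start). Brd3os, which the prefix took in by its name, had 2 sites, of 5.3 and 2.94. DNA replication and cell cycle genes had 4 of 92 (4.35%, 1.70 to 10.7%), the highest being Pold3, followed by Cdk9 (3.67). The Zfp zinc finger genes, many of which are repressors of repeats, had 17 of 394 (4.31%, 2.71 to 6.80%), with Zfp142 (18.38), Zfp82 (8.12) and Zfp143 (7.14 and 2.94) the highest. Vesicle traffic genes had 13 of 209 (6.22%, 3.67 to 10.3%), led by Vps51 with a site at each end (9.15 and 6.19). Solute carriers had 11 of 375 (2.93%, 1.65 to 5.18%), the highest at Slc6a11, a GABA transporter (9.15, 535 bp past the end).

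Genes of limb patterning stood beside these general classes. Of 53 such genes 9 had a site (17%, 9.20 to 29.2%), and the list overlaps the families of developmental transcription factors, where 22 of 239 had one (9.21%, 6.16 to 13.5%). Hoxc10-only sites were near 10 of those 239, compared with 81 of all 21887 genes (0.37%), so nearness to these families was not particular to the Tbx4-only sites. The 9 were named after their values were seen. After Tbx4 (54.08) came Hoxd9 (7.14, 275 bp before the start) and Prrx1, a factor of limb mesenchyme (6.19, 534 bp past the start). Hoxc10 had a site of 5.3 lying 139 bp outside the upper end of the gene, and Wnt5a, a signal of limb elongation, one of 4.46 inside the gene, 922 bp from its lower end. Tbx3 and Fgfr2 each had a site of 2.94, the latter 881 bp past the end. Lmx1b, which sets dorsal fate, had 2 past its end, of 2.94 and 2.26. Nrip1, a nuclear receptor corepressor, had one of 2.26, 586 bp past the start. Pitx1 had no site of the set. Of the families, Hoxa9 (18.38) and Pitx3 (11.3, with an end of Elovl3 nearer) were next to Tbx4 in score.

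Signalling ligands and receptors had 10 of 153 genes with a site (6.54%, 3.59 to 11.6%) and a median score of 4.88. The highest were the ephrin Efnb3 (10.21 and 5.3, shared with its neighbour Wrap53), its receptor family member Ephb4 (8.12, 87 bp before the start) and the BMP receptor Bmpr1b (7.14, 111 bp past the start). Extracellular matrix genes and integrins had 4 of 104 (3.85%, 1.51 to 9.47%), the highest at Dcn, a proteoglycan of connective tissue (3.67).

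The 24 housekeeping reference genes, used here as genes on in nearly all cells, had the highest share, 8 of 24 (33.3%, 18 to 53.3%). This rank depended on the setting. With gene ends within 500 bp the share was 16.7%, below the 28.4% of histone cluster genes, and at starts alone 21.1%, below their 29%. With ends within 2 kb it was 37.5%, against 37.3%. Their sites were at Tubb5 (9.24), Polr2a, Rps18, Actb (4.46), Ubb (4.46), Canx (3.67 and 2.94), Ywhaz (2.94) and Eef1a1 (2.26), all named after their values were seen. At Tubb5 the summit lay 508 bp past the end, and at Actb and Ywhaz, whose strand was not known here, 923 and 805 bp outside the gene. At Ubb and Eef1a1 the summits lay inside the gene, 459 and 139 bp past the start.

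Large families of sensory receptors and keratins held no site. These were 0 of 1110 olfactory receptors, which allows a share of up to 0.27%, 0 of 353 vomeronasal receptors (up to 0.85%) and 0 of 109 keratins and keratin-associated proteins (up to 2.75%). These limits take 3 genes of the family and cover counting error alone. By the Wilson interval used for the other classes, the share of the keratins reached up to 3.4%, which includes 3.26%. The keratins thus cannot be told from all genes. The Wilson intervals of the olfactory and vomeronasal receptors, up to 0.345% and 1.08%, lay below 3.26%. Markers of other cell types held few. There was none among 20 genes each for ectoderm, endothelium, liver and skeletal muscle (each up to 15%), 1 of 20 for blood, Cd68 (2.94, also within 1 kb of Eif4a1), and 1 of 20 for neural and Schwann cells, Gap43 (5.3). These marker lists too are too short to be told from the 3.26% of all genes.

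Repeated sites on 1 gene were rare. Of the 713 genes 38 (5.33%) had 2 sites and none had more. Some pairs lay together, as at Canx (466 bp apart), Fzd2, a Wnt receptor (7.14 and 3.67, 724 bp apart), Sox11, a factor of progenitor cells (2.94 and 1.63, 527 bp), Hmgb1 (3.67 and 2.26, 524 bp) and Cltc, the clathrin heavy chain (3.67 and 2.26, 409 bp). Others lay at opposite ends of the gene, as at Ddx5, an RNA helicase (8.12 and 3.67, 8788 bp), Csf1 (2.94 and 1.63, 19459 bp) and Raver1 (10.21 and 2.94, 18301 bp). Another Tbx4 summit lay within 1 kb of 48 of the 606 sites (7.92%), compared with 177 of the other 3655 sites without Hoxc10 (4.84%).

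Non-coding genes were also near. An end of a long non-coding RNA gene lay within 1 kb of 55 sites (9.08%), compared with 181 of the other 3655 (4.95%), and an end of a microRNA gene within 1 kb of 8 (1.32%) compared with 6 (0.164%). The microRNA genes were mostly inside or beside the protein-coding gene, as, picked after their values were seen, Mir5133 at Glce (17.15), Mir6936 at Sirt7 (6.19) and Mir2861 with Mir3960 at Cdk9 (3.67). Transfer RNA genes were near 3 sites (0.495%). By the rule these sites lie within 1 kb of protein-coding gene ends and the other 3655 do not. Nearness to non-coding genes thus cannot be told apart here from nearness to protein-coding ones.

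The promoter windows of RefSeq gave the base composition under the sites. Of 21263 windows of protein-coding genes, 198 (0.931%) held a summit of the set. They belonged to 187 genes and 171 sites, since a gene can have several starts and facing promoters overlap. Their median GC content was 63.8% (quartiles 59.0 and 68.3%), compared with 56.3% (48.3 and 64.7%) for all windows. The CpG observed to expected ratio, which is near 1 where CpG has not been lost, had a median of 0.831 (0.700 and 0.933), compared with 0.567 (0.226 and 0.827). A ratio of 0.6 or more was found in 169 of 198 windows (85.4%) and in 10137 of all 21263 (47.7%).

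**Figure D4:**
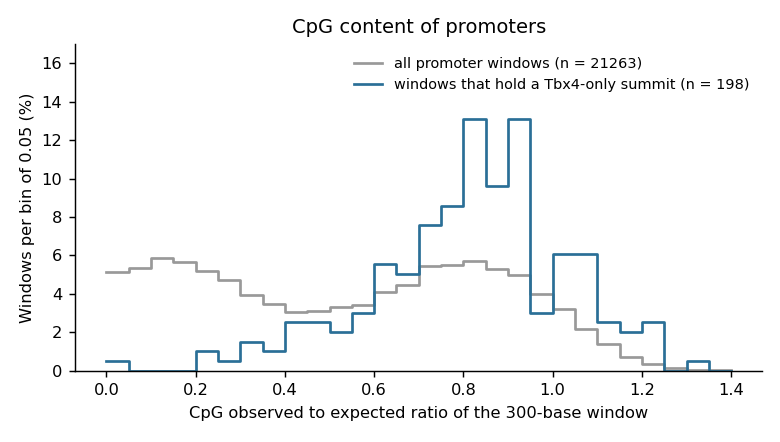
Share of promoter windows (%) in bins of 0.05 of the CpG observed to expected ratio, for all 21263 windows of protein-coding genes and for the 198 that hold a Tbx4-only summit. All windows fall into a group of low and a group of high ratio, and the windows with a summit lie mostly in the latter, with a median of 0.831 against 0.567.

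The letters of 13 motifs were searched on both strands of these windows, and a match is a description of the sequence, not of a bound site. The T-box core AGGTGT was found in 27 of 198 windows with a summit (13.6%, 9.54 to 19.1%), compared with 12.7% of all windows. The longer core GGTGTGA, which shares GGTGT with the former, was found in 15 (7.58%, 4.64 to 12.1%), compared with 3.68%. In the 482 windows with a site within 1 kb of the start, the share of the longer core was 3.53% (2.21 to 5.58%). Either core was in 34 windows (17.2%, 12.6 to 23%), compared with 14.9% of all windows, so that most of the windows with a summit held neither. A comparison within windows with a CpG ratio of 0.6 or more was added after the data were seen. There AGGTGT was in 15.4% (10.7 to 21.6%) of the windows with a summit and 9.48% of all such windows, and GGTGTGA in 7.69% (4.55 to 12.7%) and 2.80%. Among windows whose summit scored above the median of the Tbx4 list, 15 of 75 held AGGTGT (20%, 12.5 to 30.4%). This interval includes the 12.7% of all windows.

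**Figure D5:**
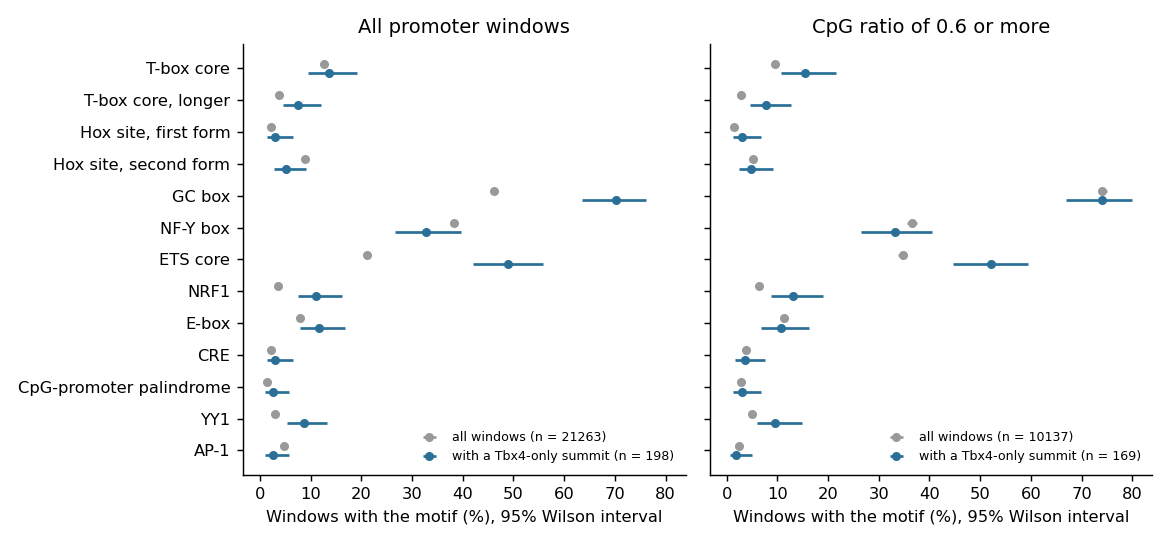
Share of promoter windows (%) that hold the letters of each of 13 motifs on either strand, with 95% Wilson intervals, for windows with a Tbx4-only summit (blue) and all windows (grey), over all windows (left) and over windows with a CpG ratio of 0.6 or more (right). The comparison on the right was added after the data were seen. The blue point lies to the right of the grey by more than its interval for the ETS core, NRF1, YY1 and the longer T-box core in both panels. The GC box and, narrowly, the E-box do so on the left but not on the right, and the shorter T-box core on the right but not on the left. The intervals count windows as separate, although the 198 windows hold 171 sites, and the 23 with an E-box 19 sites. They are thus too narrow, and the narrow excess of the E-box cannot be relied on.

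Some motifs of general promoter activators were more frequent than in all windows. The ETS core CGGAAG was in 97 of 198 windows (49.0%, 42.1 to 55.9%), compared with 21.1% of all windows, and the NRF1 letters GCGCATGC in 22 (11.1%, 7.45 to 16.2%), compared with 3.52%. The YY1 letters AAGATGGC were in 17 (8.59%, 5.43 to 13.3%), compared with 3.05%. In windows with a CpG ratio of 0.6 or more, the comparison added later, these shares were 52.1% and 34.7% for ETS, 13% and 6.39% for NRF1, and 9.47% and 4.95% for YY1. The GC box GGGCGG, found in 70.2% compared with 46.2% of all windows, had shares of 74.0% and 74.1% there. The CCAAT box, read by NF-Y, was in 32.8% and 38.2% of windows, and the E-box CACGTG in 11.6% and 7.84%. The letters TGACGTCA of the CRE were in 3.03% and 2.23%, the CpG-promoter palindrome TCTCGCGA in 2.53% and 1.41% and the AP-1 letters TGAGTCA in 2.53% and 4.66%. Of the letters of Hox proteins, TTTATGG was in 3.03% and 2.26% and TTATTG in 5.05% and 8.93%.

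The distance from the summit to the nearest match differed between motifs. For AGGTGT the median was 48 bp over 24 sites (quartiles 16.5 and 82.5 bp), with 8 within 25 bp, and for GGTGTGA 128 bp over 13 sites (48 and 173 bp). It was 43.5 bp for the GC box over 122 sites, of which many windows hold several, 61.5 bp for the ETS core over 82 sites and 91.5 bp for NRF1 over 19. A match within 25 bp was found at 33.3% of the sites for AGGTGT, 30.3% for the GC box and 37.5% for TTATTG (8 sites). The share was 26.3% for the E-box, 23.3% for the CCAAT box, 19.5% for the ETS core, 15.4% for GGTGTGA and 10.5% for NRF1. The distance of a random match in the window was not computed. The scores of the 31 sites in a window with a T-box core had a median of 3.67 (2.26 and 5.745), compared with 2.94 (2.26 and 4.67) for the 140 without one. The medians were the same for the ETS core, 3.67 (2.26 and 5.3) over 82 sites with it and 2.94 (2.26 and 4.46) over 89 without. The difference was thus not particular to the T-box core. Of the 20 highest sites in a window, 5 had a T-box core (25%, 11.2 to 46.9%), so that the strongest promoter sites too mostly lacked these letters within their window.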

How the data were processed

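The submitters' processing notes name Bowtie2 2.2.6, MACS2 2.1.1.20160309 and HOMER as tools and mm10 as the build. The authors deposited a list of 1 bp summits for Tbx4 (4780) and one for Hoxc10 with the Abcam antibody (1614), each with a score on a −log10 scale. The labels do not say how peaks were selected, which control was used or whether libraries were pooled. From these files, distances between summits and gene ends were computed in Python 3.11.15 with pandas 2.3.3, on 1-based coordinates. Strand and promoter windows came from the RefSeq promoter table, which covered 17492 of the 21887 genes, and a start is the outermost one. Of overlapping windows on opposite strands, 17 pairs were compared and all were reverse complements. The counting was tested on simulated sites. Named are the genes of the 15 highest sites with ties, genes with 2 sites and the 3 highest of each class. The sites and lists were chosen with earlier results of these data known. Alternatives changed the distances, the score range, the chromosomes and which end counts, and 3 of them were chosen after seeing the data. Of the classes, 1 is not reported here.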

Additional observations from a re-analysis of the deposited data

How the results depend on the processing

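The number of sites, 606, was 459 with gene ends within 500 bp and 795 within 2 kb, and 608 and 603 when Hoxc10 summits were kept away by 100 and 1000 bp. In the higher-scoring 50% of Tbx4 summits it fell to 198, or 8.28% of those summits, at 244 genes, with a median score of 5.745. These 198 are the 191 sites above the list median of 3.67 and some, not all, of the 88 sites tied at it. The share nearest to a start was 78.1% in the 198 too, but 84.9% within 500 bp and 72.7% within 2 kb. Between 5 and 9 classes reached 3 times the share of all genes, with 5 when starts alone were counted. There the cytosolic ribosomal proteins fell from 4.02 to 1.26 times that share, while histone genes stayed at 6.75 times or more under every setting tried. AGGTGT rose to 20% (12.5 to 30.4%) of windows whose summit scored above the list median, an interval that includes the 12.7% of all windows. In those windows the ETS core also rose, from 49% to 54.7%, and the GC box from 70.2% to 76%. The CCAAT box fell there from 32.8% to 28%. GGTGTGA fell to 3.53%, near the 3.68% of all windows, when any site within 1 kb of the start was counted. Except for changes that follow from fewer sites or another distance, the cause was not tested. No paired analysis was possible because each group has 1 sample and no result comes from a test.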
